A study of Drosophila melanogaster with 4 samples.

Results

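The Eip and Imp genes described here are targets of the steroid hormone ecdysone that encode enzymes, a kinase and secreted or membrane proteins, not nuclear receptors. The set was chosen with earlier results of these data known and holds 8 of the 10844 genes on the array: Cth (formerly Eip55E), MsrA (formerly Eip71CD), Eip63E, ImpE1, ImpE2, ImpE3, ImpL1 and ImpL2. Other genes with Eip names, such as Eip78C and Eip93F, are in a separate pathway list. Below, the Eip and Imp genes are these 8. They are read by 11 of 13966 probe sets, of which 1 is shared by Eip63E and CG10038. All samples are Kc167, a female Drosophila melanogaster cell line of embryonic origin kept in the serum-free medium CCM3. Control cells were incubated for 72 h without hormone and mock-treated. Ecdysone cells received 10 µM muristerone A, an ecdysone analog, for the 72 h and were mock-treated. Irradiated cells had no hormone and received 280 Gy of gamma rays, and combined cells had both treatments. All 4 cultures rested for 90 min before RNA was taken. Each condition was read by 1 array without a replicate, and that number limits the precision.

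Ecdysone enters the cell, binds a receptor made of EcR and Ultraspiracle, and switches on a first wave of transcription factors, which in turn control later target genes. Genes named Eip, for ecdysone-induced protein, were found in cultured cells and at chromosome puffs that answer the hormone. Genes named Imp were found in imaginal discs, the larval sacs that become adult appendages, as transcripts on membrane-bound polysomes that appear early (E) or late (L) after the hormone. Many of the Imp products are secreted or lie at the cell surface, and disc morphogenesis is the process they are best known from.

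The crossed layout gives each treatment 2 pairs of arrays that share no array. The ecdysone difference was taken as ecdysone against control and as combined against irradiated, and the irradiation difference as irradiated against control and as combined against ecdysone. The ecdysone and combined arrays are together called the hormone arrays, and the control and irradiated arrays the hormone-free arrays. Values are MAS5 signal units, and differences are on the log2 scale after signals below a floor of 119.4 units, the median of all scaled signals, were raised to it. A fold is written as "at least" where the lower level was at the floor. The limma model was run on probe sets whose mean signal exceeded the floor, and the verbs rose and fell are kept for an adjusted p under 0.05. Median signals of the arrays lay between 113.7 and 125.0 units, and 48.8% to 51.0% of probe sets were above the floor. The log2 ratio of the 3′ to the 5′ control probe set of the GAPDH transcript was 0.52 (control), 0.82 (ecdysone), 1.49 (irradiated) and 1.81 (combined), while that of actin was -0.29, 0.27, 0.93 and -0.47 and that of eIF-4a 0.01, 0.19, 0.58 and -0.34 on the same arrays.

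Of the 11 probe sets, 4 were bright enough for the test: those of Cth, MsrA and ImpL2 and the one that Eip63E shares with CG10038. A further 4 exceeded the floor on 1 or 2 arrays, and 3 were at the floor on all 4 arrays. These 3 were the probe set of ImpE2, that of ImpL1 and 1 of the 2 of ImpE1. With ecdysone 1 of the 4 tested probe sets rose and none fell, where 1.44% of the 5981 tested probe sets rose and 0.552% fell. By size, 1 of 11 was at least 2-fold higher in both pairs and none lower, against 2.26% and 1.7% of all probe sets. The median ecdysone difference over the 11 was 0.00, as it was over all 13966.

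**Figure D1:**
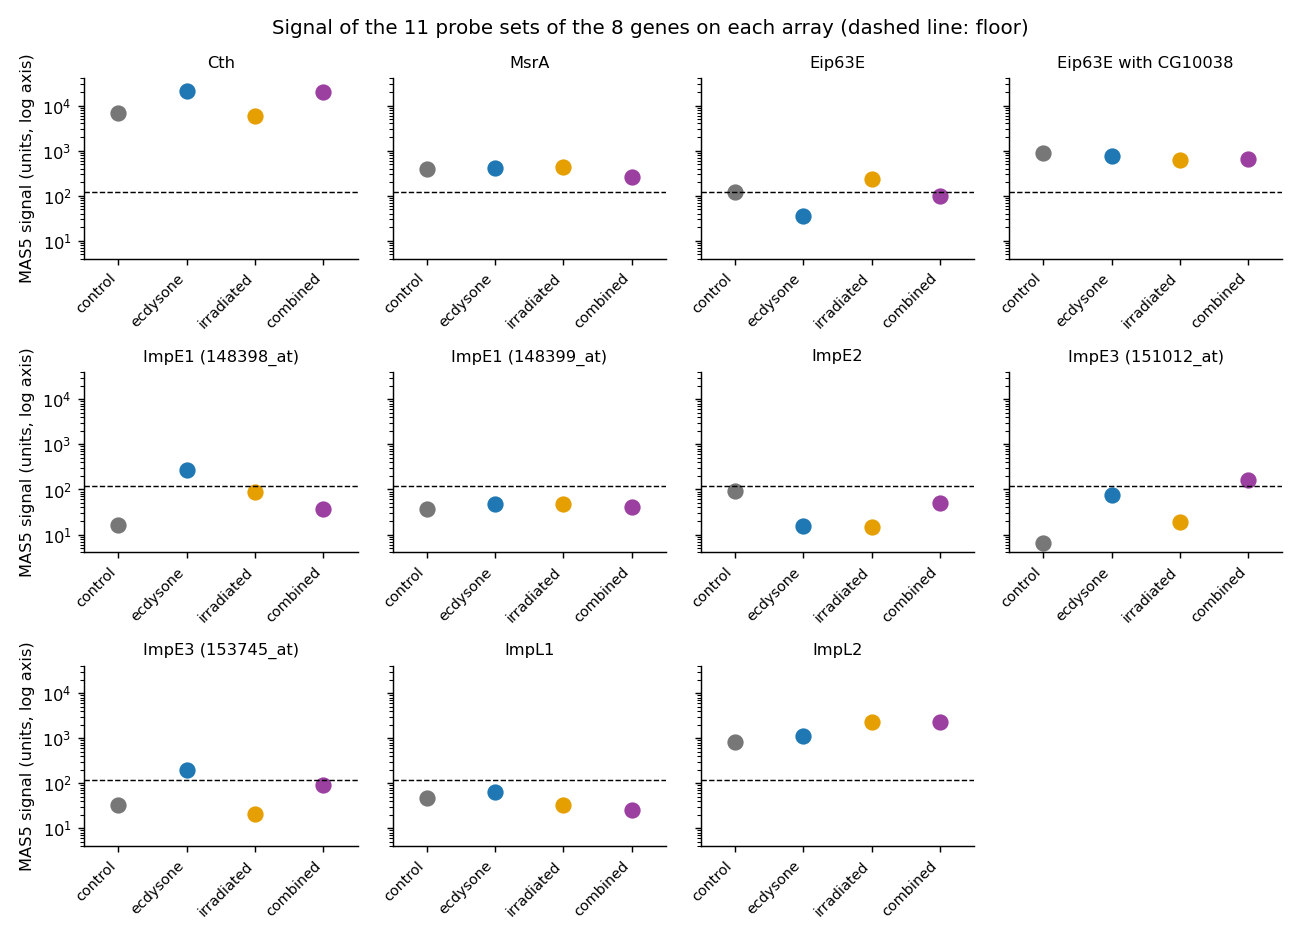
MAS5 signal (units, log axis) of each of the 11 probe sets on the control, ecdysone, irradiated and combined arrays, 1 point for each array, with a dashed line at the floor of 119.4 units. Cth and ImpL2 lie above the floor throughout and differ between arrays, while ImpE2, ImpL1 and 1 probe set of ImpE1 lie below it on all 4 arrays.

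Cth encodes cystathionine gamma-lyase, the enzyme that releases cysteine in the last step of transsulfuration. Its signal was 6978 units in control, 20769 with ecdysone, 5813 with irradiation and 19711 with both. Both hormone arrays thus lay above both hormone-free arrays, an order that 17.5% of all probe sets had. The levels were highest with ecdysone, followed by combined, control and irradiated, and within each hormone state they were close, at -0.26 for irradiated minus control and -0.08 for combined minus ecdysone. Cth was 2.98-fold higher without irradiation and 3.39-fold higher with it.

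In the limma fit Cth rose by a log2 difference of 1.67 ± 0.25 (SE), with a 95% interval of 1.16 to 2.17 and an adjusted p of 3.1e-05. It ranked 32 among the 5981 probe sets by p. The ecdysone differences of its 2 pairs were 0.19 apart, and among the 200 probe sets nearest to it in mean signal the median gap was 0.39. With 1 variance prior for all intensities the adjusted p of Cth was 0.687. In bulk RNA, a change in the share of cells that express a gene and a change in RNA per cell cannot be told apart, here and in the results that follow.

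The enzymes that feed Cth were read in the same arrays. Cbs, cystathionine beta-synthase, makes the substrate of Cth. Its signal was 1384 in control, 538.0 with ecdysone, 1206 with irradiation and 632.2 with both. Both hormone arrays lay below both others, the opposite order to Cth and one that 18.0% of all probe sets had, with differences of -1.36 and -0.93. Cbs did not pass the test, at -1.15 ± 0.38 (SE; limma adjusted p = 0.173). Sam-S, which makes S-adenosylmethionine from methionine upstream of both enzymes, had 740.6, 821.1, 855.7 and 265.8 units in the same order. The combined array alone was low, and the limma adjusted p for ecdysone was 0.652. The other names on this partner list, Cse and Mat, matched no probe set of a single gene under those names. They are not taken here as further enzymes that the array misses.

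MsrA encodes the reductase that repairs oxidised methionine of the S form, and as Eip28/29 it was among the first ecdysone-induced proteins described in Kc cells. Its signal was 397.4 in control, 405.8 with ecdysone, 437.8 with irradiation and 265.7 with both. The first 3 arrays were alike and the combined array was lowest. The ecdysone difference was 0.03 without irradiation and -0.72 with it. Over both pairs limma gave -0.34 ± 0.61 (SE), with a 95% interval of -1.59 to 0.90 and an adjusted p of 0.915. With 1 array for each condition the interval does not measure spread between cultures, so its upper end of 0.90 sets no limit on an increase. Whether MsrA and Cth differed in their response was not tested.

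SelR encodes the reductase for the R form of oxidised methionine. Its signal was 817.7 in control, 1888 with ecdysone, 1284 with irradiation and 1862 with both. Both hormone arrays lay above both others, as in 17.5% of all probe sets, with a difference of 1.21 without irradiation and 0.54 with it. SelR did not pass, at 0.87 ± 0.32 (SE; limma adjusted p = 0.269). The list's other entry, Msr, had no probe set under that name.

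Eip63E encodes a cyclin-dependent kinase of the PFTAIRE type that binds cyclin Y. Release 6 lists 14 transcripts for it, and no result here tells them apart. The probe set of its own, 143565_at, had 120.5 units in control, 36.3 with ecdysone, 231.7 with irradiation and 98.5 with both. Both hormone arrays were at the floor and below both others, an order that 18.0% of all probe sets had. Only the irradiated array stood clear of the floor, at least 1.94-fold above combined. The mean was too low for the test. When the filter was set at the 25th percentile of signals, the limma adjusted p for ecdysone was 0.873, from signals that lay in part below the floor.

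The probe set shared by Eip63E and CG10038, 153948_at, had 876.7, 753.9, 618.6 and 667.5 units in control, ecdysone, irradiated and combined. Its ecdysone differences were -0.22 and 0.11, and limma gave -0.05 with a 95% interval of -0.89 to 0.79 (adjusted p = 0.982). Which of both genes this signal comes from cannot be told from the array.

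CycY encodes cyclin Y, the partner that Eip63E needs for activity. Its signal was 426.2 in control, 23.0 with ecdysone, 441.2 with irradiation and 34.3 with both. Both hormone-free arrays were above the floor and both hormone arrays below it. The level with ecdysone was at least 3.57-fold lower without irradiation and at least 3.70-fold lower with it. CycY was the single one of the 12 partner probe sets to differ at least 2-fold in both ecdysone pairs, which 3.95% of all probe sets did. Its hormone arrays lay below both others, as in 18.0% of all probe sets. Its mean lay under the floor, so it was not tested. With the filter at the 25th percentile its limma adjusted p was 0.229, and with no filter 0.399.

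Cdk4 and Cdk5, kinases of other cyclins, gave no call. Cdk4 had 129.5 units in control and 409.9 in ecdysone, then 193.0 in irradiated and 262.4 in combined (limma adjusted p = 0.780). Cdk5 was at the floor on all 4 arrays, with 35.7 to 111.1 units.

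**Figure D2:**
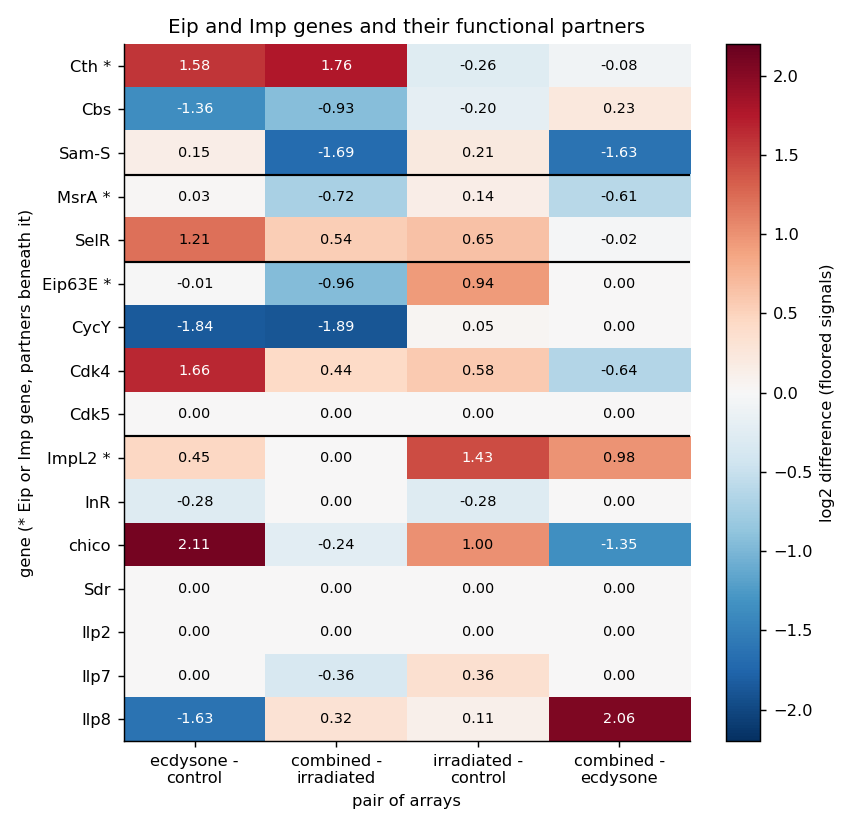
Log2 differences on floored signals (colour and printed value) for Cth, MsrA, Eip63E (its own probe set) and ImpL2, marked with an asterisk, and for their partner genes beneath them, in the 4 pairs of arrays. Cth is higher and Cbs and CycY are lower in both ecdysone pairs, and ImpL2 is higher in both irradiation pairs.

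The early Imp genes had low signals. ImpE1, known from cysteine-rich repeats like those of the LDL receptor, had 2 probe sets that disagreed. The first, 148398_at, had 16.1 units in control, 270.2 with ecdysone, 89.8 with irradiation and 36.4 with both. The ecdysone array alone exceeded the floor, at least 2.26-fold above control, and 10.5% of all probe sets were at least 2-fold higher in that pair. With irradiation both arrays of the pair were at the floor. Its 2 floored ecdysone differences were 1.18 apart on the log2 scale, and it was the only probe set of the 11 with a gap of at least 1, which 28.5% of all probe sets had. The second, 148399_at, had 37.6, 46.9, 47.2 and 41.3 units in control, ecdysone, irradiated and combined, at the floor throughout.

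ImpE2, whose product is secreted at the apical side of disc cells, had 94.1 units in control, 15.2 with ecdysone, 14.5 with irradiation and 50.5 with both. All 4 values were at the floor, so no fold is given. ImpE2 and Eip63E are next to each other on chromosome arm 3L with 0 annotated genes between them in Release 6.

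ImpE3, which encodes another extracellular protein of the discs, had 2 probe sets, both too low to be tested. The first, 151012_at, had 6.5 units in control, 76.5 with ecdysone, 18.6 with irradiation and 166.6 with both. The second, 153745_at, had 32.5, 196.1, 20.7 and 89.8 units on the same arrays. At both probe sets the hormone arrays lay above both hormone-free arrays, as in the 17.5% of all probe sets given above. Which hormone array was the brighter differed between the probe sets. A single array of each exceeded the floor, the combined array of the first, at least 1.40-fold above irradiated, and the ecdysone array of the second, at least 1.64-fold above control. With no filter the limma adjusted p-values were 0.575 and 0.764, from signals mostly below the floor.

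ImpL1, a late gene of the discs, had 46.3 units in control, 63.8 with ecdysone, 33.5 with irradiation and 25.7 with both. All 4 values were at the floor. A change at these levels was not detectable.

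ImpL2 encodes a secreted protein with immunoglobulin domains that binds insulin-like peptides and restrains insulin signalling. Its signal was 836.7 in control, 1139 with ecdysone, 2256.4 with irradiation and 2255.5 with both. The arrays separated by irradiation and not by hormone, with both irradiated arrays above both others, an order seen in 16.6% of all probe sets. The ecdysone difference was 0.45 without irradiation and 0.00 with it, and limma gave 0.22 with a 95% interval of -0.42 to 0.86 (adjusted p = 0.898).

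For irradiation ImpL2 was 2.70-fold higher without ecdysone and 1.98-fold higher with it. The limma difference was 1.21 ± 0.31 (SE), with a 95% interval of 0.57 to 1.85. The unadjusted p was 0.000558 and the adjusted p was 0.0855, so ImpL2 did not pass. It ranked 39 of 5981 by p. With arrays scaled on their medians the adjusted p was 0.0303, and with quantile normalization 0.434. Per the file headers, both arrays of irradiated cells used wash modules 1 and 2 and were scanned before the other arrays, which used modules 3 and 4, so the order of handling and irradiation cannot be told apart. The GAPDH 3′ to 5′ ratio given above was also higher on both arrays of irradiated cells, while those of actin and eIF-4a were highest with irradiation and lowest with both treatments. The part of RNA quality in the result was not tested.

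Among the other tested probe sets irradiation gave limma adjusted p-values of 0.936 for Cth, 0.966 for MsrA and 0.926 for the shared probe set of Eip63E. No Eip or Imp probe set passed for irradiation in limma, where 0.485% of all tested probe sets passed. At an unadjusted p under 0.05 there was 1 of the 4, ImpL2, against 6.87% of all tested probe sets. None differed at least 2-fold in both irradiation pairs, against 2.84% of all.

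**Figure D3:**
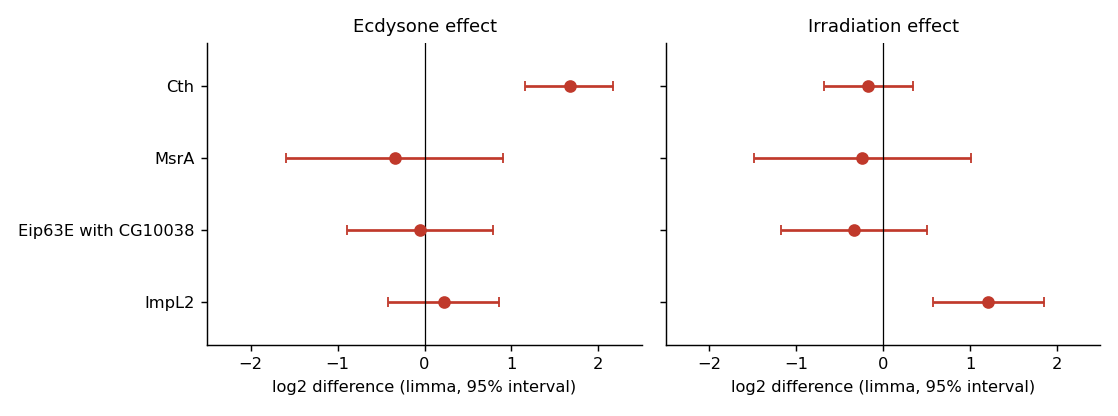
Log2 differences for ecdysone (left) and irradiation (right) of the 4 tested probe sets, with bars for the 95% intervals of the additive limma fit on 4 arrays. The interval of Cth for ecdysone (1.16 to 2.17) and that of ImpL2 for irradiation (0.57 to 1.85) lie above 0, before any adjustment for the number of probe sets.

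The insulin pathway genes that stand beside ImpL2 had 6 of 11 members with a probe set of their own, and 2 of these were tested. chico, the substrate of the insulin receptor, had 155.8 units in control, 670.0 with ecdysone, 311.0 with irradiation and 262.6 with both (limma adjusted p = 0.762 for ecdysone and 0.971 for irradiation). Ilp8, an insulin-like peptide of damaged or slowly growing discs, had 371.4, 120.0, 400.7 and 500.9 units on the same arrays (limma adjusted p = 0.860 for ecdysone and 0.844 for irradiation). Neither gene kept its direction between the pairs of the ecdysone comparison. InR, the receptor gene, exceeded the floor in control alone, with 144.9 units, and Ilp7 in irradiated alone, with 153.7 units. Ilp2 and Sdr, a secreted binding protein like ImpL2 in function, were at the floor on all 4 arrays.

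The rest of the ecdysone pathway was described with a list of 42 genes, of which 28 had a probe set of their own and 15 of their 35 probe sets were tested. With ecdysone 3 of the 15 rose and none fell, where 1.44% of all tested probe sets rose and 0.552% fell. By size, 5 of the 35 were at least 2-fold higher in both pairs and none lower, against 2.26% and 1.7% of all. The list was chosen with earlier results of these data known, so setting its counts beside these shares is a description and no test. Of the 3 that rose, 2 were at the floor on both hormone-free arrays and passed the filter only through their hormone arrays. The median difference over the 35 was 0.00, and 12 of them were at the floor on all 4 arrays, where the floored difference is 0 by construction. For Eip74EF, Eip75B, crol and Ldh (also known as ImpL3) no probe set was annotated to that gene alone, and 10 names of the list, written as members of an Eip71C cluster, matched no gene in the annotation used here.

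The receptor genes were not called. EcR had 212.2 units in control, 535.6 with ecdysone, 308.5 with irradiation and 286.6 with both at its brighter probe set (limma adjusted p = 0.865). usp, its dimer partner, lay between 176.9 and 186.9 units on all 4 arrays. The coactivator gene tai had 2 probe sets, both too low to be tested. Oatp74D (also known as EcI), the importer that carries ecdysone into the cell, had 110.5 units in control, 267.7 with ecdysone, 172.1 with irradiation and 61.2 with both (limma adjusted p = 0.990). Its hormone arrays were thus the brightest and the dimmest of the 4.

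Calls for the other transcription factors of the list, early and later ones together, were among nuclear receptors and Eip93F. Eip78C had 32.0 units in control and 1848 in ecdysone, then 47.9 in irradiated and 947.8 in combined, and rose (limma adjusted p = 0.000335), at least 11.1-fold over both pairs. Hr4 had 21.1, 856.3, 63.7 and 646.0 units and rose at this probe set (limma adjusted p = 0.0296), at least 6.23-fold, while its other one had 51.2, 53.0, 23.6 and 246.7. Both genes were at the floor on both hormone-free arrays, and limma used the signals below it. The limma adjusted p of Hr4 was 0.0622 with quantile normalization, 0.0915 with no filter and 0.668 with 1 variance prior for all intensities, and it was not tested with the filter at the 60th percentile. With that prior Eip78C and Cat did not pass either, each also at 0.668, and both passed under the other alternatives. Eip93F, which encodes a regulator of metamorphosis, was at least 4.23-fold higher over both pairs and did not pass (limma adjusted p = 0.192). Hr3 was at least 2-fold higher in both pairs at 1 probe set and was not tested. Its other probe set had 167.1, 16.5, 10.5 and 346.6 units.

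Of the late puff and tissue genes of the list, 8 had a probe set of their own, all of them Sgs or Fbp genes and none from the Eip71C names. None of the 8 was called for ecdysone, and 5 were at the floor on all 4 arrays. The late puff genes of region 71E are named Eig71Ea to Eig71Ek in the annotation, and they were looked up after the values of the list were seen. Of these 11 genes 9 had a probe set of their own, 4 were at the floor on all 4 arrays and 1, Eig71Ee, was tested and not called for ecdysone (limma adjusted p = 0.741). Eig71Ee had 62.0 units in control, 360.3 with ecdysone, 185.1 with irradiation and 232.4 with both, so the ecdysone array was the highest. Fbp1, the gene of a fat body receptor for storage proteins, was at least 2-fold higher in both irradiation pairs, with 80.4 units in control and 491.6 in irradiated, and did not pass (limma adjusted p = 0.540). Hsp27, a small heat shock gene with a known ecdysone response element, was also at least 2-fold higher in both irradiation pairs, with 44.1, 227.4, 342.4 and 609.3 units in control, ecdysone, irradiated and combined (limma adjusted p = 0.597 for irradiation). These were 2 of the 35 probe sets of the pathway list, against 2.84% of all probe sets in either direction. Cat, the catalase gene, was the member outside the transcription factors that rose with ecdysone. It had 283.7, 1947, 298.0 and 1771 units, all above the floor, a difference of 2.68 ± 0.41 (SE; limma adjusted p = 4.76e-05).

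**Figure D4:**
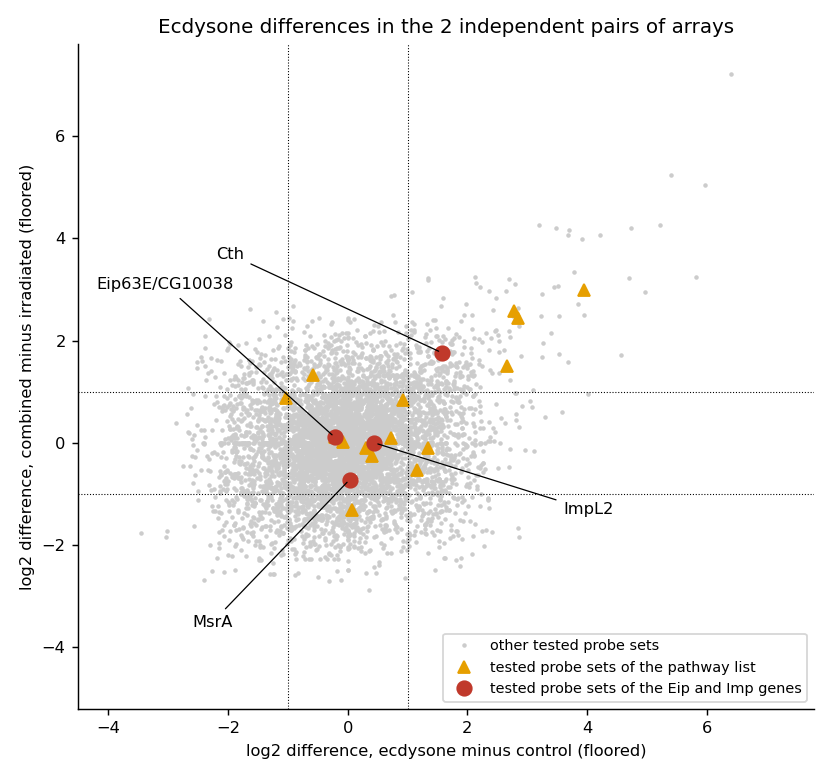
Log2 difference on floored signals of ecdysone minus control (x axis) against combined minus irradiated (y axis) for the 5981 tested probe sets, with dotted lines at a 2-fold difference. Cth lies beyond 2-fold in both pairs beside 4 probe sets of the pathway list, and MsrA, ImpL2 and the shared probe set of Eip63E lie inside the lines.

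The probe sets nearest in profile were sought among the 3806 that were bright and variable enough, by the Euclidean distance of centred, floored log2 signals over the 4 arrays. For Cth they were those of CtsL1, which encodes a lysosomal cathepsin, at a distance of 0.18, CG4594 at 0.18 and CG9590 at 0.19. In irradiated CG4594 (30.7 units) and CG9590 (44.5 units) were at the floor, which Cth was not. CtsL1 had 3239 units in control, 10787 with ecdysone, 2593 with irradiation and 9902 with both. For ImpL2 they were CG16790 at 0.09, lola at 0.16 and CG7772 at 0.19. In control CG16790 (31.7 units) and lola (114.1 units) were at the floor, which ImpL2 was not. CG7772 had 395.5, 465.0, 918.9 and 1024 units. For the first probe set of ImpE1 they were Pgant9 at 0.07, CG18135 at 0.09 and CG10958 at 0.09. With 4 arrays many profiles are alike, and a small distance is a description of these arrays.

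Kc167 cells are held to resemble hemocytes, the blood cells of the fly, and 7 of 8 hemocyte markers had a probe set of their own. Of these Hml had 922.6 units in control and 284.2 in ecdysone and fell with ecdysone, while Pxn (598.1 and 3089 units) and Col4a1 (50.5 and 1805 units) rose. Col4a1 was at the floor on both hormone-free arrays, with 112.8 units in irradiated, and passed the filter only through its hormone arrays. The summed signal of this list was 2153 in control, 6008 with ecdysone, 2280 with irradiation and 8967 with both. The median ecdysone difference over the 7 was 0.13. No tested probe set of the crystal cell and lamellocyte, muscle, fat body, epidermis and disc or germline lists passed for either treatment, and those of neurons were too low to test. The summed signals of these lists over the 4 arrays were 769.3 to 1831 for crystal cells and lamellocytes, 402.4 to 684.8 for muscle, 985.2 to 1635 for fat body and 490.9 to 1766 for epidermis and discs. They were 280.4 to 623.3 for neurons and 391.6 to 804.4 for germline. The summed hemocyte signal was higher on both hormone arrays, as was Cth, while single markers went both ways. The sums of the fat body list and of the epidermis and disc list were also higher on both hormone arrays. Pxn and Col4a1 gave 3089 and 1805 of the 6008 hemocyte units with ecdysone. The part of these markers in the Cth result was not tested.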

How the data were processed

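Biotin-labelled targets from total RNA of Kc167 cells were hybridised to Affymetrix DrosGenome1 arrays, 1 for each condition. The deposited values are signal intensities computed by the authors with MAS5, per the submitters' processing notes, with a version not given in the sources used here. Of 14010 probe sets, 44 controls were left out and 13966 analysed. Symbols came from the platform annotation and were updated by gene identifier with the Release 6 plus ISO1 MT annotation, and 2 list names (EcI, nos) were matched as its synonyms.

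Each array was rescaled to a common mean trimmed by 2% at each end, a change of at most 0.0667%. Signals below the median of all scaled signals, 119.4 units, were raised to it before log2 differences were taken. limma 3.58.1 in R 4.3.3 was fitted to unfloored log2 signals of the 5981 probe sets with a mean above the floor, with ecdysone and irradiation as additive terms, a variance prior that follows intensity, and Benjamini-Hochberg adjustment over all of them at 0.05. Its 1 residual degree of freedom was joined by a prior with a median of 29.4, so p-values measure spread between probe sets of like intensity, not between cultures. Alternatives covered scaling, floor, filter, fold threshold, variance prior and each pair alone.

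The genes and lists were chosen with earlier results of these data known. The text names the 8 genes, their functional partners, pathway genes that passed limma or differed at least 2-fold in both pairs of arrays, and the 3 probe sets nearest in profile to each gene whose floored signal spanned at least 2-fold. Further computation used pandas 2.3.3 and numpy 2.4.6 under Python 3.11.15, with matplotlib 3.10.9 for plots. Present and absent calls were not used here.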

Additional observations from a re-analysis of the deposited data

Results flagged for a closer look

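In 3 results the difference had opposite signs in the 2 pairs of arrays, and this opposition was not tested. The ecdysone difference of MsrA was 0.03 without irradiation and -0.72 with it, a change of -0.75 on the log2 scale between pairs. Its irradiation difference was 0.14 without ecdysone and -0.61 with it, which is the same change of -0.75. The ecdysone difference of the probe set shared by Eip63E and CG10038 was -0.22 and 0.11, a change of 0.33. Among the 200 probe sets nearest in mean signal the median gap was 0.91 for MsrA and 0.56 for the shared probe set.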

How the results depend on the processing

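Cth was the member called by limma for ecdysone under 7 of 8 alternatives and by the 2-fold rule under 9 of 10. With 1 variance prior for all intensities 0 Eip or Imp probe sets passed for ecdysone in limma (1 at an unadjusted p under 0.05), 0 of the pathway list, and 0 of all 5981. With a 3-fold threshold in both pairs 0 were called (0.938% of all probe sets). With the floor at the 25th percentile 3 were called for ecdysone, Cth, Eip63E (lower) and ImpE3 (higher), where 10.9% of all probe sets were. With no floor 4 were (both ImpE3 probe sets among them; 15.0% of all), and in the first pair alone 2 (Cth and ImpE1; 21.0% of all). For irradiation ImpL2 was 1 call in limma with median scaling, and 1 by size with median scaling (2.87% of all), with a 1.5-fold threshold (8.31%) and in the first pair alone (19.0%). ImpE3 was 1 call with no floor (13.6%) and ImpE1 1 in the second pair alone (18.0%). Ecdysone pairs at least 1 apart numbered 4 with the 25th percentile floor (53.4% of all), 2 with no floor (61.2%) and 0 with the 60th percentile floor (16.2%). Adding the Eig71E genes to the pathway list, chosen after seeing the data, left 3 calls. Over all probe sets limma called 119 for ecdysone (0 to 132 under the alternatives) and 29 for irradiation (0 to 47). The cause of these changes was not tested. The adjusted p of Cth for ecdysone ranged from 8.05e-11 to 0.687 and that of ImpL2 for irradiation from 0.0303 to 0.846. No called difference of a single probe set turned its sign. Signal over background limits ImpE1, ImpE2, ImpE3 and ImpL1. No paired analysis was possible because the labels give no replicate numbers and each condition has 1 array.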
